A study of Mus musculus with 568 samples.

Results

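The members of the Nodal pathway were followed here through the derivation of mouse primordial germ cell-like cells (PGCLCs) and of oogonia- and oocyte-like cells, 8 genes in all: Nodal, Gdf3, Tdgf1, Lefty1, Lefty2, Cer1, Foxh1 and Smad7. They were chosen by name, with earlier results of these data known. Bulk RNA-seq covered 7 of the 8 among 16335 genes, all but Cer1, and single-cell RNA-seq covered 8 of 8 among 15718 genes. All cells came from female embryonic stem cells (ESCs) of a cross of 129S1/SvImJ and CAST/EiJ, in which the Tsix gene was truncated on the 129 X chromosome (Xmus), a GFP reporter sat on Xmus and a tdTomato reporter on the other X (Xcas), and doxycycline switched on transgenes of the germ cell transcription factors Prdm1, Prdm14 and Tfap2c. The bulk groups were ESCs, which were expanded in serum/LIF and moved to 2i/LIF only shortly before induction, epiblast-like cells (EpiLCs) made with bFGF and activin A in 2 steps of 48 h, and PGCLCs sorted after 5 days in aggregates with doxycycline at 1.5 µg/ml and no added cytokines. The sort kept cells with the surface markers SSEA1 and CD61 and the tdTomato reporter, either with GFP (XGFP+, both reporters on) or without it (XGFP-). Each group held 4 libraries. The study's methods describe a pair of clones with technical replicates of each, and the labels do not say which library came from which clone, so p-values measure the spread between libraries, which is partly technical. For the single cells, PGCLCs were combined with 75000 somatic gonadal cells of female E13.5 embryos into reconstituted ovaries (rOvaries) for 6 days, and all sorted cells carried tdTomato: XGFPhigh, XGFPintermediate and XGFPlow cells descended from XGFP- PGCLCs, and constitutive XGFP+ cells from XGFP+ PGCLCs. Unsorted ESCs were also sequenced as single cells.

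Nodal and Gdf3 are secreted ligands of the TGF-beta family that bind type I and type II activin receptors together with the membrane-anchored co-receptor Cripto, the product of Tdgf1, and that cause SMAD2 and SMAD3 to be phosphorylated. The transcription factor FOXH1 brings these SMADs to target genes, among which are Nodal itself and the secreted inhibitors Lefty1 and Lefty2, while Cer1 encodes another secreted antagonist and Smad7 an inhibitor that acts on the receptors inside the cell. In the early embryo the pathway keeps the epiblast in its undifferentiated state and patterns the primitive streak. The activin A of the EpiLC medium signals through the same receptors and SMADs.

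Some of these genes have close relatives, which bears on how reads are told apart. Lefty1 (ENSMUSG00000038793) lies on chr1:180935022-180938400 and Lefty2 (ENSMUSG00000066652) on chr1:180893108-180899103, both on the plus strand of mm10 and each with 4 exons. Their coding sequences hold 1107 bases each and were identical at 91.87% of positions, with 90 substitutions and no gap. Over whole transcripts, 2.51% of the 125-base windows of Lefty1 and 1.65% of those of Lefty2 also occurred in the other gene, and for windows of 75 bases the shares were 11.7% and 7.77%. Tdgf1 (ENSMUSG00000032494, chr9:110939603-110946158, minus strand, 7 exons) has a processed copy on chr16:3730510-3731022, Tdgf1-ps1, whose 513 bases matched the Tdgf1 coding sequence at 98.83% of 512 aligned positions. Reads assigned to Tdgf1-ps1 amounted to between 4.38% and 6.91% of those assigned to Tdgf1 in every bulk library, and 1.31% of the 125-base windows of Tdgf1 occurred in the copy. The copy and Tdgf1 followed each other over the 16 libraries, with Pearson's r = 0.994, and how many reads were exchanged between them was not tested. None of the other members shared a window of 125 bases with another gene, and no annotated gene overlapped any of the 8.

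Nodal (ENSMUSG00000037171, chr10:61417972-61425338, plus strand, 3 exons) and Tdgf1 were the 2 members called lower in PGCLCs than in EpiLCs, so the 250 bases before their start sites are shown, from RefSeq on GRCm38.p6, 5′ to 3′ on the strand of the gene. Capitals mark the SMAD box CAGAC, searched on both strands, as was the FOXH1 motif AATNCACA, which does not overlap it.
Nodal, chr10:61417722-61417971, plus strand: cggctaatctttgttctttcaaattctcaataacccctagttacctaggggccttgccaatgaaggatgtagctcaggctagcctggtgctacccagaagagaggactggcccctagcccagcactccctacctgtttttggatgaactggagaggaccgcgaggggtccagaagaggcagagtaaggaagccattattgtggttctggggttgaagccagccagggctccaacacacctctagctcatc
Tdgf1, chr9:110946159-110946408, minus strand: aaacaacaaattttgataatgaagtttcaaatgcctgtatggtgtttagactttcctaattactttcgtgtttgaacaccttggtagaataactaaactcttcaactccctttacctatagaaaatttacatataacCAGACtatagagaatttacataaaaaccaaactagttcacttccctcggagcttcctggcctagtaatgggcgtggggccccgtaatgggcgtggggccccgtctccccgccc
The window of Tdgf1 held 1 SMAD box, closer to the start site than to the far end of the window, and that of Nodal held neither motif. Among 32851 promoters of this length, 42.19% held a SMAD box and 3.184% the FOXH1 motif, so the box before Tdgf1 is of a common kind. A match is a description of letters, not of a bound site. Only these 250 bases were searched, so the lack of a match does not bear on sites elsewhere in or near the genes.

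Each bulk library held between 29778299 and 46533858 reads assigned to genes. Levels are given as normalized counts, that is, reads per gene divided by 1 size factor per library, so they can be compared between libraries for a gene. Values per kb of exon are used to compare genes. A gene was called changed at a false discovery rate (FDR) under 0.001 in limma, adjusted over the 16281 genes with a mean above 10, and fold changes are on the scale of log2(normalized count + 1) with their standard error (SE). Marker lists were read to check the labels. In EpiLCs, 6 of 6 naive ESC markers were lower than in ESCs and 5 of 5 EpiLC markers higher, beside 22.9% and 24.9% of all genes. Of 9 germ cell markers, 8 were higher in XGFP+ PGCLCs than in EpiLCs and 7 in XGFP- PGCLCs, beside 27.8% and 29.9% of all genes. The transgenes Prdm1, Prdm14 and Tfap2c are among the 9, as is Itgb3, which encodes the sort marker CD61. Induction and sorting could raise these by design. In XGFP- PGCLCs Ddx4 had a mean of 224 against 532 in EpiLCs, and Dazl 348 against 243. Of the 6 naive markers, 5 were lower in XGFP- than in XGFP+ PGCLCs, beside 12.5% of all genes. In bulk RNA, fewer cells of a type and less RNA per cell cannot be told apart.

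Nodal rose from ESCs to EpiLCs and then fell in both kinds of PGCLC to below its level in ESCs. Its normalized counts were 2298, 2294, 2540 and 2714 in the ESC libraries, 4684, 5516, 5043 and 6473 in EpiLCs, 1447, 1418, 1463 and 1317 in XGFP+ PGCLCs, and 1189, 1138, 1183 and 1201 in XGFP- PGCLCs. No 2 of the 4 groups overlapped. The mean went from 2462 ± 204 in ESCs to 5429 ± 775 in EpiLCs, then to 1411 ± 65.3 in XGFP+ and 1178 ± 27.5 in XGFP- PGCLCs (SD, n = 4). From ESCs to EpiLCs the log2 fold change was 1.13 (SE 0.082, FDR 5.61e-10). Against EpiLCs, Nodal was 3.82-fold lower in XGFP+ PGCLCs (FDR 3.02e-13) and 4.57-fold lower in XGFP- PGCLCs (FDR 3.68e-14). Against ESCs the same PGCLCs were 1.74-fold and 2.08-fold lower (FDR 7.45e-08 and 9.08e-10). Between the PGCLCs, the difference of XGFP- minus XGFP+ was -0.26 (95% interval -0.43 to -0.09, FDR 0.0134) and did not pass the threshold although the libraries did not overlap.

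Gdf3 (ENSMUSG00000030117, chr6:122605403-122610087, minus strand, 3 exons), the other ligand, was not called in any of the 6 comparisons. Its counts were 2207, 2319, 2348 and 2773 in ESCs, 2250, 1853, 1641 and 1197 in EpiLCs, 2250, 2086, 2100 and 1847 in XGFP+ PGCLCs, and 2337, 2190, 2097 and 1829 in XGFP- PGCLCs. Every pair of groups overlapped, and the widest spread was among the EpiLC libraries. The largest difference, EpiLCs minus ESCs, was -0.51 (95% interval -0.79 to -0.22, FDR 0.00308), and without the first EpiLC library it was -0.64 and passed the threshold (FDR 0.00018). XGFP- and XGFP+ PGCLCs differed by 0.03 (95% interval -0.26 to 0.31).

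**Figure D1:**
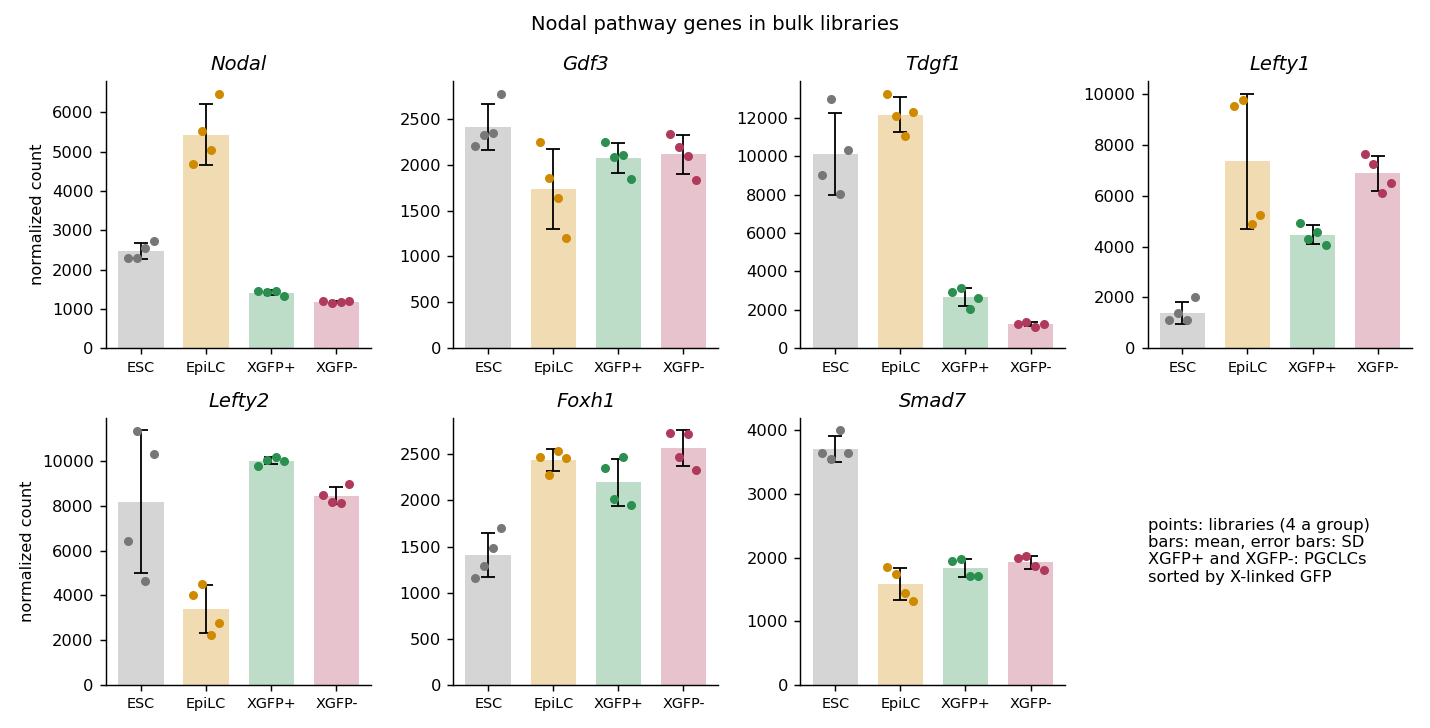
Normalized counts (y axes, each from 0) of the 7 genes of the pathway in the bulk table, by group (x axes); points are libraries, bars are means and error bars are SDs of 4 libraries. Nodal and Tdgf1 were lowest in the PGCLCs, Lefty1 was lowest in ESCs (1393 ± 432), and Gdf3 overlapped between all groups.

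Tdgf1, the co-receptor gene, was high in ESCs and EpiLCs and fell in PGCLCs, further in XGFP- than in XGFP+ cells. Its counts were 9050, 13011, 8051 and 10352 in ESCs, 13272, 12086, 11049 and 12321 in EpiLCs, 2907, 3118, 2055 and 2597 in XGFP+ PGCLCs, and 1261, 1338, 1127 and 1278 in XGFP- PGCLCs. The ESC and EpiLC libraries overlapped, whereas every PGCLC library was below both, and every XGFP- library was below every XGFP+ library. EpiLCs and ESCs differed by 0.29 (95% interval 0.02 to 0.56, FDR 0.0551). Relative to EpiLCs, Tdgf1 was 4.61-fold lower in XGFP+ PGCLCs (log2 fold change -2.20, SE 0.128, FDR 2.25e-11) and 9.73-fold lower in XGFP- PGCLCs (-3.28, FDR 7.00e-14). It was the only member called between the PGCLCs, with means of 1251 ± 88.9 in XGFP- and 2669 ± 462 in XGFP+ cells and a difference of -1.08 (95% interval -1.35 to -0.81, FDR 1.92e-06). The naive markers, of which 5 of 6 were also called lower in XGFP- PGCLCs, summed to between 44545 and 51689 in XGFP+ and between 24247 and 31038 in XGFP- libraries, and their part in the difference in Tdgf1 was not tested. A relative of the co-receptor, Cfc1 (Cryptic), went the other way on entry into PGCLCs, from a mean of 4.21 in EpiLCs to 246 in XGFP+ and 159 in XGFP- PGCLCs (log2 fold changes 5.62 and 4.98, FDR 1.49e-13 and 4.71e-13).

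Lefty1 and Lefty2, the secreted inhibitors, moved in opposite directions on the way to EpiLCs. Lefty1 rose from ESCs to EpiLCs by 2.37 on the log2 scale (SE 0.208, FDR 8.79e-09), and over the same step Lefty2 fell by 1.25 (SE 0.228, FDR 8.87e-05). The counts of Lefty1 were 1097, 1371, 1093 and 2011 in ESCs, 9545, 9773, 4893 and 5235 in EpiLCs, 4931, 4303, 4588 and 4080 in XGFP+ PGCLCs, and 7642, 7271, 6100 and 6510 in XGFP- PGCLCs. Those of Lefty2 were 6437, 11369, 4624 and 10341 in ESCs, 4033, 4515, 2208 and 2745 in EpiLCs, 9804, 10078, 10208 and 10037 in XGFP+ PGCLCs, and 8512, 8171, 8158 and 8971 in XGFP- PGCLCs. The EpiLC libraries fell into a higher pair and a lower pair for both genes, libraries 1 and 2 against 3 and 4, so the SD of Lefty1 there was 2658 on a mean of 7361. Despite this spread no EpiLC library overlapped an ESC library for either gene. When only ESCs and EpiLCs were fitted, the change in Lefty2 lost the threshold (FDR 0.00222).

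In PGCLCs, Lefty2 returned to a level at which it overlapped with ESCs, with means of 10032 ± 169 in XGFP+ and 8453 ± 382 in XGFP- cells against 8193 ± 3190 in ESCs. Relative to EpiLCs it was 3.09-fold higher in XGFP+ (FDR 3.29e-06) and 2.61-fold higher in XGFP- PGCLCs (FDR 2.08e-05). Lefty1 stayed above its ESC level, by 1.73 in XGFP+ and 2.34 in XGFP- PGCLCs on the log2 scale (FDR 6.36e-07 and 6.66e-09), and was not called against EpiLCs (-0.65, FDR 0.00897, and -0.03, 95% interval -0.47 to 0.41). Between the PGCLCs, Lefty1 was higher in each XGFP- library than in any XGFP+ library, by 0.62 (95% interval 0.18 to 1.05, FDR 0.0198), and Lefty2 was lower in each, by -0.25 (95% interval -0.73 to 0.23, FDR 0.391). Neither passed the threshold with all 16 libraries in the fit, and both passed it when only the PGCLC libraries were fitted (FDR 6.13e-05 and 0.000975). Markers of extraembryonic and definitive endoderm, whose visceral part is also known to transcribe Lefty1, were measured for 5 of 10 list members. Gata6, Sox7, Sox17, Ttr and Afp were not among the 16335 genes with bulk values. The study's methods keep genes with a mean normalized count above 10, and whether this removed them was not tested. Summed, they reached at most 157 in XGFP+ libraries and between 388 and 490 in XGFP- libraries, with 2 of 5 called higher in the latter, and their part in the difference in Lefty1 was not tested.

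Foxh1 (ENSMUSG00000033837, chr15:76668225-76669948, minus strand, 3 exons), the DNA-binding partner of the SMADs, rose in EpiLCs and stayed above its ESC level. Its counts were 1162, 1292, 1481 and 1704 in ESCs, 2474, 2274, 2542 and 2466 in EpiLCs, 2354, 2020, 2474 and 1947 in XGFP+ PGCLCs, and 2731, 2475, 2722 and 2333 in XGFP- PGCLCs. The ESC libraries lay below all others. Relative to ESCs the log2 fold change was 0.80 for EpiLCs, 0.65 for XGFP+ PGCLCs and 0.88 for XGFP- PGCLCs (FDR 1.12e-06, 1.50e-05 and 2.57e-07), and no difference was called among the last 3 groups.

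Smad7 (ENSMUSG00000025880, chr18:75367529-75395935, plus strand, 6 exons), the inhibitor inside the cell, fell in EpiLCs and stayed below its ESC level. Its counts were 3646, 3542, 3996 and 3640 in ESCs, 1848, 1740, 1448 and 1310 in EpiLCs, 1943, 1974, 1705 and 1715 in XGFP+ PGCLCs, and 2000, 2021, 1870 and 1801 in XGFP- PGCLCs. All ESC libraries lay above all others. The level fell by 1.24 on the log2 scale in EpiLCs (SE 0.090, FDR 6.98e-10) and was also lower than in ESCs in XGFP+ and XGFP- PGCLCs, with log2 fold changes of -1.02 and -0.95 (FDR 1.17e-08 and 1.88e-08). XGFP- PGCLCs minus EpiLCs gave 0.29 (FDR 0.00711), which passed the threshold only without the first EpiLC library (0.37, FDR 0.000936).

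**Figure D2:**
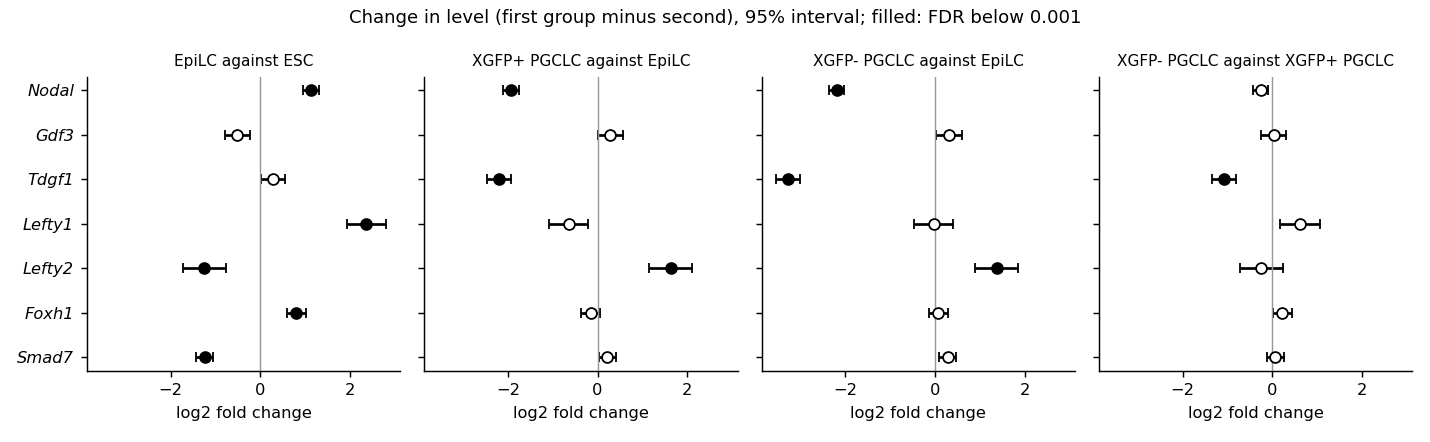
Log2 fold change (x axes, first group minus second) of the 7 genes (y axis) in 4 comparisons; lines are 95% intervals and filled points have an FDR under 0.001. From ESCs to EpiLCs 5 of 7 genes were called, where 24.9% of all genes were called higher and 22.9% lower. Between XGFP- and XGFP+ PGCLCs only Tdgf1 was called, at -1.08, beside 11.3% of all genes higher and 12.5% lower.

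Counted over the 7 genes, the members moved in both directions. From ESCs to EpiLCs, 3 were called higher and 2 lower, where 24.9% of all genes were called higher and 22.9% lower. Of the genes in XGFP+ PGCLCs against EpiLCs, 1 member was higher and 2 were lower, beside 27.8% and 29.5% of all genes. The XGFP- PGCLCs against EpiLCs gave the same member counts, 1 and 2, beside 29.9% and 31.9%. Between XGFP- and XGFP+ PGCLCs, 0 members were higher and 1 was lower, beside 11.3% and 12.5%. Against ESCs, 2 members were higher and 3 lower in XGFP+ PGCLCs (25% and 24.9% of all genes), and again 2 and 3 in XGFP- PGCLCs (29.8% and 29.6%). The comparisons that share EpiLC or ESC libraries are not independent of each other. The median log2 fold change over the members was 0.29 from ESCs to EpiLCs, -0.16 and 0.07 from EpiLCs to XGFP+ and XGFP- PGCLCs, and 0.03 between the PGCLCs, where the median over all genes was 0.01, -0.0042, -0.026 and 0.01.

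Because the members moved in different directions, their order within a group changed. In ESCs, Tdgf1 and Lefty2 led with means of 3858 ± 819 and 3138 ± 1222 normalized counts per kb, which overlapped, and Lefty1 was last with 792 ± 246, close to Smad7 at 820 ± 44. In EpiLCs, Tdgf1 (4646 ± 348) and Lefty1 (4187 ± 1512) led and did not differ beyond their spread, followed by Nodal (2592 ± 370), Foxh1 (1787 ± 84.1) and Lefty2 (1293 ± 413). In both, a Lefty gene was next to Tdgf1 at the top, Lefty2 in ESCs and Lefty1 in EpiLCs. XGFP+ PGCLCs had Lefty2 (3842 ± 64.6) before Lefty1 (2546 ± 209) and Foxh1 (1611 ± 187), with Nodal at 674 ± 31.2. In XGFP- PGCLCs, Lefty1 (3914 ± 399) came before Lefty2 (3238 ± 146), and Nodal (562 ± 13.1), Tdgf1 (477 ± 33.9) and Smad7 (425 ± 23.3) were last.

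The balance of inhibitor to ligand differed accordingly. The ratio of Lefty1 to Nodal, per length, was 0.669 ± 0.166 in ESCs, 1.67 ± 0.715 in EpiLCs, 3.78 ± 0.196 in XGFP+ PGCLCs and 6.97 ± 0.781 in XGFP- PGCLCs (SD, n = 4). Its 4 groups of libraries did not overlap, with the highest XGFP+ library at 4.06 and the lowest XGFP- library at 6.14. For Lefty2 to Nodal the ratios were 2.69, 0.510, 5.71 and 5.76 in the same order, so the PGCLCs of both kinds were alike in their means. The ratio of Tdgf1 to Nodal decreased from 3.32 in ESCs through 1.82 and 1.52 to 0.850 in XGFP- PGCLCs. These ratios are descriptions, built from the levels above.

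The rest of the pathway was read from 48 genes in 7 lists, of which 41 passed the filter. From ESCs to EpiLCs 19 of 41 were called higher and 10 lower (24.9% and 22.9% of all genes), with a median of 0.40 beside 0.01 over all genes. Going from EpiLCs to XGFP+ PGCLCs, 14 were higher and 14 lower (27.8% and 29.5% of all genes, median of the list -0.17), and to XGFP- PGCLCs 12 were higher and 11 lower (29.9% and 31.9% of all genes, median 0.12). Between XGFP- and XGFP+ PGCLCs 8 were higher, 5 lower and 28 not called, beside 11.3% and 12.5% of all genes called higher and lower.

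Among ligands and the proteases that mature them, the largest change from ESCs to EpiLCs was in Inhbb, the gene of the activin B subunit, from a mean of 270 to 7.18 (log2 fold change -5.07, FDR 1.38e-11). Pcsk6, a convertase that cleaves the Nodal precursor, fell from 3460 to 703 (-2.30, FDR 1.85e-14), and Furin, another such convertase, rose by 0.94 in XGFP+ PGCLCs over EpiLCs. Of the 6 receptor genes tested, 4 rose and 1 fell in EpiLCs, where 24.9% of all genes rose and 22.9% fell. The one that fell was Acvr1b, which encodes the type I receptor ALK4 used by Nodal, from 1402 to 700.1 (FDR 3.05e-11). It rose again in PGCLCs, to 1372 in XGFP+ and 1905 in XGFP- cells, and these differed from each other by 0.47 (FDR 3.14e-06). Tgfbr3 and Tgfbr2, receptors of TGF-beta itself, exceeded their XGFP+ level in XGFP- PGCLCs by 2.15 and 1.45 (FDR 1.65e-05 and 8.49e-05).

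Fst, whose product follistatin sequesters activin, had the widest swing of the secreted inhibitors. From a mean of 47.1 in ESCs it reached 3562 in EpiLCs, and it was back at 24.8 in XGFP+ PGCLCs and 63.7 in their XGFP- counterparts, with log2 fold changes of 6.18 into EpiLCs (FDR 3.36e-14) and -7.09 and -5.77 from there into XGFP+ and XGFP- PGCLCs (FDR 6.36e-15 and 4.53e-14). Dand5, an antagonist of Nodal, was 2.20-fold higher in XGFP- than in XGFP+ PGCLCs (FDR 0.00034). Inside the cell, Smad3 and Smad2 rose from EpiLCs to XGFP+ PGCLCs by 0.76 and 0.41 and to XGFP- PGCLCs by 0.88 and 0.48. Among 11 intracellular brakes, Skil and Pmepa1, both also targets of SMAD signalling, rose by 2.37 and 1.82 in EpiLCs (FDR 6.35e-12 and 2.04e-11). Pmepa1 then fell in both PGCLCs, by 1.85 in XGFP+ and 1.72 in XGFP- cells. Tgif2, a repressor that binds SMADs, rose instead, by 1.44 and 1.96. Skil kept much of its rise, and XGFP+ and XGFP- PGCLCs still exceeded ESCs by 1.77 and 2.28 (FDR 5.01e-10 and 7.12e-12). Its mean, 12377 at the EpiLC stage, was 8196 and 11617 in these PGCLCs.

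Of the 7 mesendoderm genes tested that the pathway is known to switch on, 5 rose and 2 fell from ESCs to EpiLCs, beside the same shares of all genes. Eomes, a T-box factor of the primitive streak, went from a mean of 218 to 2227 (log2 fold change 3.34, FDR 4.93e-13). From there it fell to 515 in XGFP+ and 300.3 in XGFP- PGCLCs, with log2 fold changes of -2.10 and -2.89 (FDR 2.48e-10 and 2.02e-12). Between the PGCLCs the difference of XGFP- minus XGFP+ was -0.79 (FDR 0.000198). Lhx1 was at 0 in all ESC libraries, at 8.71 in EpiLCs, and at 124.5 and 174.6 in XGFP+ and XGFP- PGCLCs. A list of 3 mesoderm markers that includes Eomes summed to 2400 to 5676 in EpiLCs and to 261 to 391 in XGFP- PGCLCs, and its part in these changes was not tested.

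**Figure D3:**
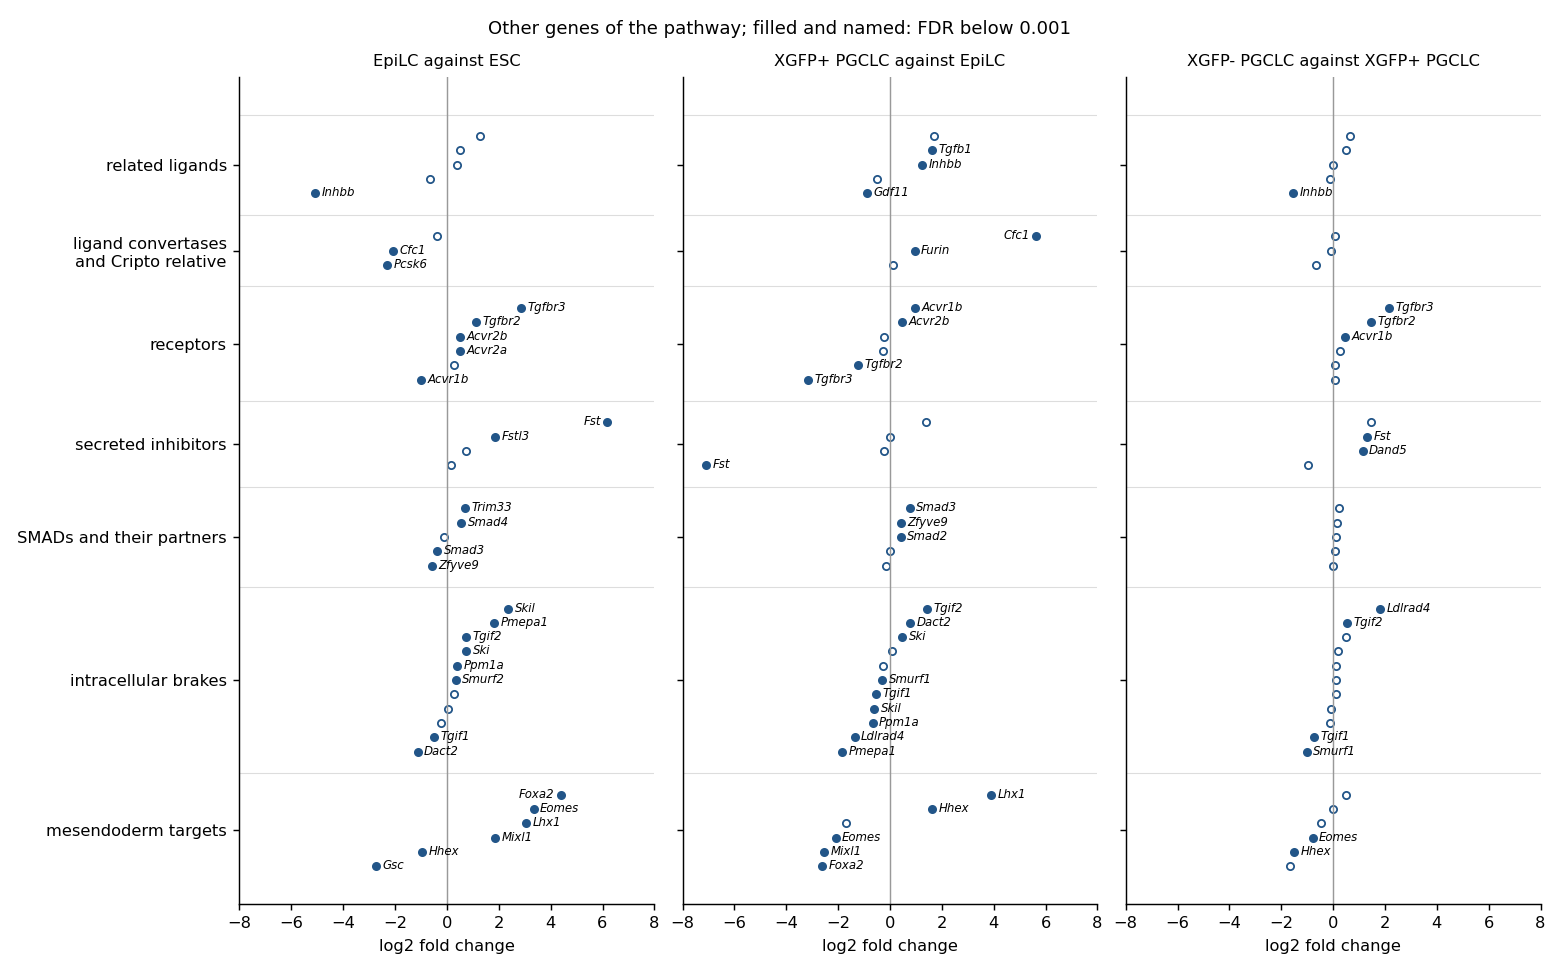
Log2 fold change (x axes) of other genes of the pathway in 3 comparisons, grouped by role (y axis); filled and named points have an FDR under 0.001, open points do not. Fst reached 6.18 into EpiLCs and -7.09 from EpiLCs into XGFP+ PGCLCs, and Cfc1 5.62 in the latter.

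Each member's profile over the 16 libraries was set against 11695 genes. These libraries fall into 4 groups, so a correlation describes the pattern of group means. Nodal was most like Clip1 and Dcxr (Pearson's r of 0.994 each) and Ccng1 (0.992). Apart from its pseudogene, Tdgf1 was closest to Ccnd1 (0.993) and Naa10 (0.991). Adgrl1 (0.961) and Cgn (0.957) were among the 3 closest to Lefty1, and Gprasp2 (0.948) was closest to Lefty2. Foxh1 was closest to Shc2 (0.962), Smad7 to Mapt (0.977) and Gdf3, which varied least, to Med18 (0.850). Among the members, Nodal and Tdgf1 followed each other (0.886), as did Lefty1 and Foxh1 (0.913), while Nodal and Lefty2 (-0.818) and Lefty1 and Smad7 (-0.841) ran opposite.

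In the rOvary, the members were read in 462 cells that passed the filters, of 518 wells: 88 constitutive XGFP+, 125 XGFPhigh, and 249 XGFPintermediate and XGFPlow cells, which made up 27.7% and 26.2% of the total. Single ESCs numbered 24, all on a lane that held no rOvary cells, with a median of 1103780 reads. Where ESCs are set beside rOvary cells, lane and depth thus cannot be told apart from cell type. Median depth was 354149 reads in constitutive XGFP+ cells and between 636623 and 645474 in the other rOvary populations. No read of any member was found in the 10 empty wells. The labels name no separate cultures, so each population is 1 sample and no test between populations was made. Shares carry an exact Clopper-Pearson interval at 95% and summed CPM values (reads of a gene scaled to a common library size) an exact Poisson interval, which cover counting error only, since the reads carry no molecular identifiers. Germ cell markers summed to between 3173 and 4374 CPM in the 4 rOvary populations and to 255 CPM in ESCs, while gonadal somatic markers stayed between 4.9 and 27.6 CPM. Dazl alone held between 1692 and 3107 CPM of the rOvary germ cell sums. The naive markers summed to 831 CPM in constitutive XGFP+, 1188 in XGFPhigh, 193 in XGFPintermediate and 245 in XGFPlow cells. Most of each sum was 1 gene, Zfp42, at 689, 970, 161 and 202 CPM. The sum was thus higher in the same populations as most members below. The endoderm markers, read here for 9 of 10, summed to 61.7, 10.3, 41.7 and 26.35 CPM in the same order, with Afp alone at 49.1 CPM in constitutive XGFP+ cells. The part of these markers in the differences between populations was not tested.

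Nodal reads were present in most constitutive XGFP+ and XGFPhigh cells and in fewer XGFPintermediate and XGFPlow cells. They were found in 84.1% of constitutive XGFP+ cells (interval 74.75 to 91.02), 83.2% of XGFPhigh cells (75.5 to 89.3), 34.4% of XGFPintermediate cells (26.2 to 43.3) and 47.1% of XGFPlow cells (37.97 to 56.39), and in 24 of 24 ESCs. Summed over cells, Nodal stood at 96.0 CPM (92.6 to 99.5), 99.7 (97.6 to 101.9), 38.01 (36.7 to 39.3) and 49.1 (47.6 to 50.7) in the same order, against 92.6 CPM in ESCs. Among cells that held any Nodal read the median level was 93.3, 92.2, 56.9 and 55.2 CPM, so both the share of cells and the level within them were lower in XGFPintermediate and XGFPlow cells, whose own intervals of the share overlapped. Thinning every cell to 100000 reads gave 81.8%, 80%, 30.5% and 45.5%.

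Tdgf1 reads were rare in XGFPintermediate and XGFPlow cells. They were detected in 27.3% of constitutive XGFP+ cells (18.3 to 37.8) and 37.6% of XGFPhigh cells (29.1 to 46.7), but in 4 XGFPintermediate cells (3.12%, 0.858 to 7.81) and 6 XGFPlow cells (4.96%, 1.84 to 10.5). In ESCs they were found in 24 of 24 cells, at 331 CPM. The summed levels in the rOvary were 55.6, 45.2, 8.39 and 1.162 CPM. A single XGFPintermediate cell held 66.9% of the Tdgf1 reads of that population, and without it the level was 2.81 CPM.

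Gdf3, which was not called in bulk, had reads in a smaller share of XGFPintermediate and XGFPlow cells as well. It was found in 84.1% of constitutive XGFP+ cells (74.75 to 91.02), 89.6% of XGFPhigh cells (82.9 to 94.3), 45.3% of XGFPintermediate cells (36.5 to 54.4) and 53.7% of XGFPlow cells (44.4 to 62.8). Its summed level was 209.7, 200, 47.18 and 82.97 CPM.

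Lefty1 was the most abundant member in the rOvary cells, at 697 CPM in constitutive XGFP+ cells and 804 in XGFPhigh cells, against 144.4 in XGFPintermediate and 263 in XGFPlow cells. It was unevenly spread: the median XGFPhigh cell had 241 CPM and the highest 5376, and the median XGFPintermediate cell had 0. The share of cells with Lefty1 reads was 71.6% (60.98 to 80.7), 78.4% (70.2 to 85.3), 45.3% (36.5 to 54.4) and 58.7% (49.4 to 67.5). Lefty2 followed it at lower levels, with 266, 361, 105.1 and 182.5 CPM and reads in 62.5%, 76%, 35.2% and 42.98% of cells. Cer1 (ENSMUSG00000038192, chr4:82881751-82885148, minus strand, 2 exons), which could be read only here, was rare, with reads in 5.68%, 8.80%, 2.34% and 0.826% of cells and in 0 of 24 ESCs, which allows a share of up to 12.5% at 3 counts of the total and of 14.25% by the exact interval. A single XGFPhigh cell held 61.5% of the Cer1 reads of its population.

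Foxh1 differed least. Its summed level was 101.2 CPM in constitutive XGFP+ cells, 78.7 in XGFPhigh, 68.2 in XGFPintermediate and 100 in XGFPlow cells, and it was detected in 87.5%, 91.2%, 63.3% and 70.2% of them. Smad7 was low everywhere, at 5.63, 5.41, 1.73 and 3.398 CPM, with reads in 50%, 58.4%, 23.4% and 35.5% of cells. Its shares moved more with depth than those of the other members: at 100000 reads per cell they were 25%, 32%, 12.5% and 19.01%.

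**Figure D4:**
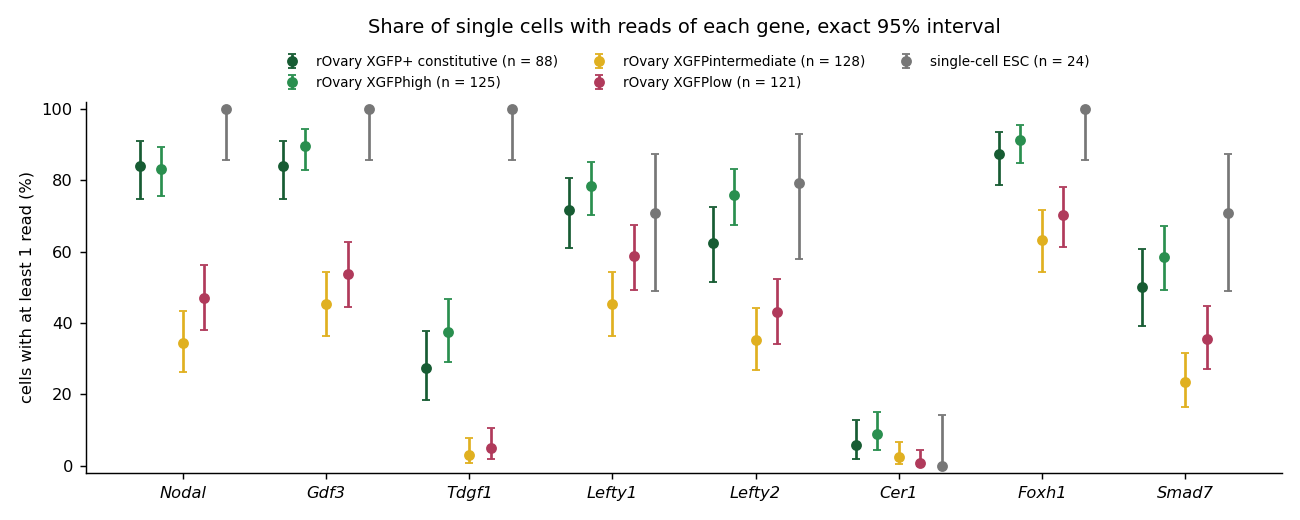
Share of cells with at least 1 read (y axis, percent) of each of the 8 genes (x axis) in the 4 rOvary populations and in ESCs; lines are exact 95% intervals. For every gene but Cer1 the intervals of XGFPhigh cells lie above those of XGFPintermediate and XGFPlow cells. ESCs were sequenced more deeply than the rOvary cells, and the shares are not thinned to a common depth.

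Between populations, the summed CPM of genes with reads in at least 10% of cells, as a mean over the 4 rOvary populations, was set against that in XGFPhigh cells. Of these genes, 7.21% of 11849 were more than 2-fold lower in XGFPintermediate cells and 5.92% in XGFPlow cells, and 14.5% and 14.6% were more than 2-fold higher. Tdgf1 passed this filter only through the constitutive XGFP+ and XGFPhigh cells, so that its lower level elsewhere was set by the filter and is a description. Cer1 did not pass. The other 6 members had reads in at least 10% of cells in each population, and 5 of the 6 were more than 2-fold lower in XGFPintermediate cells, beside 5.08% of the 10720 genes that met the same condition. The folds were 2.62 for Nodal, 3.13 for Smad7, 3.43 for Lefty2, 4.24 for Gdf3 and 5.57 for Lefty1, and Foxh1 was the exception, at 1.15-fold lower. In XGFPlow cells 3 of the 6 were more than 2-fold lower, beside 3.72% of genes: Lefty1 by 3.06-fold, Gdf3 by 2.41 and Nodal by 2.03. Lefty2 was just outside at 1.98-fold lower, and with the cell holding most of its reads left out of each population it was 2.20-fold lower. None of the 6 was more than 2-fold higher in either population, a change seen in 12.3% and 12.6% of genes. Tdgf1 was 5.39-fold lower in XGFPintermediate cells, but 14.9-fold lower with the cell holding most of its reads left out of each population, when it exceeded Lefty1 at 6.96-fold. In XGFPlow cells it was 38.9-fold lower. By the mean over populations, 29 other pathway genes were compared. Of these, 2 were more than 2-fold lower in XGFPintermediate cells and 4 higher, beside 7.21% and 14.5% of all genes. In XGFPlow cells 2 were lower and 7 higher, beside 5.92% and 14.6%. The 2 lower genes were Eomes and Gsc in both. Eomes was found in 51.2% of XGFPhigh, 6.25% of XGFPintermediate and 8.26% of XGFPlow cells, and Gsc in 32%, 0% and 1.65%. For Gsc the absence from XGFPintermediate cells allows a share of up to 2.34% at 3 counts of the total and of 2.84% by the exact interval. Both also passed the mean over populations through the cells where they were frequent, so these values are descriptions. Pmepa1 stood at 1.90, 9.74 and 5.21 CPM in XGFPhigh, XGFPintermediate and XGFPlow cells.

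Cells of 1 population were heterogeneous in how many of the 8 genes they showed. The median cell had reads of 5 members in the constitutive XGFP+ population, 6 in XGFPhigh, 2 in XGFPintermediate and 3 in XGFPlow, and at 100000 reads per cell the medians were 5, 5, 2 and 3. No member was detected in 3.41% and 4.80% of the constitutive XGFP+ and XGFPhigh cells, and in 25.8% of XGFPintermediate and 17.4% of XGFPlow cells. At least 6 were detected in 43.2%, 54.4%, 5.47% and 15.7%. Detection also differed beyond the members, with a median of 8225, 8056, 7241 and 7253 genes of any kind per cell. Of 29 other pathway genes compared, 23 had reads in a smaller share of XGFPintermediate than of XGFPhigh cells. In XGFPlow cells 20 of the 29 did. The part of this wider difference in the shares of the members was not tested. Detection of Lefty1, Lefty2, Gdf3 and Foxh1 went with that of Nodal within each rOvary population. The link was weaker for Smad7 in XGFPintermediate cells, at 29.55% with and 20.24% without Nodal reads. Tdgf1 was found there in 2 of 44 cells with and 2 of 84 without Nodal. Among XGFPintermediate cells with Nodal reads, 84.1% also had Lefty1 reads, against 25% of those without Nodal, at median depths of 677139 and 621108 reads. Among XGFPhigh cells the shares were 84.6% and 47.6%, and among XGFPlow cells 80.7% and 39.1%. Foxh1 was found in 57 of 57 XGFPlow cells with Nodal and in 28 of 64 without.

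**Figure D5:**
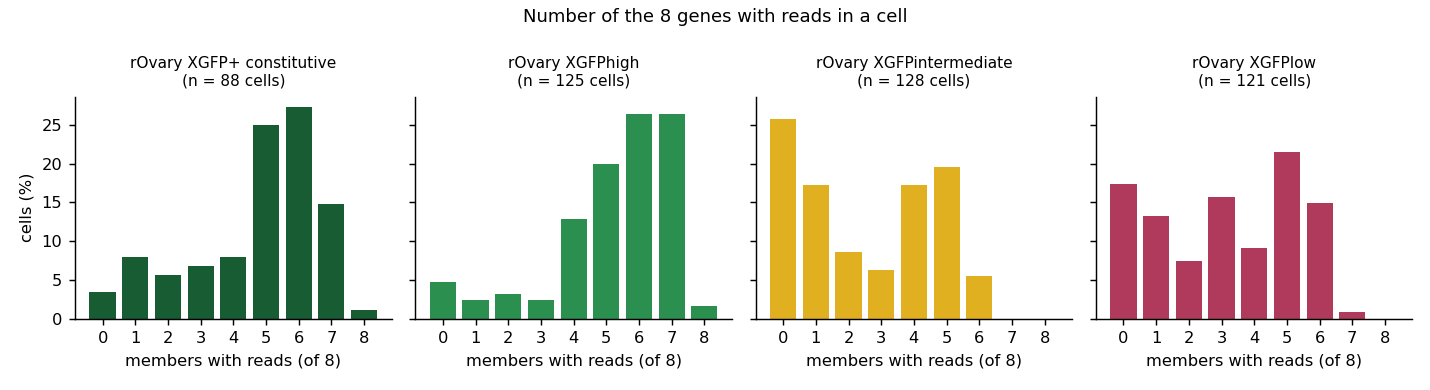
Percent of cells (y axis) by the number of the 8 genes with reads (x axis) in each rOvary population. Cells with 6 or more members made up 54.4% of XGFPhigh and 5.47% of XGFPintermediate cells, and cells with none 4.80% and 25.8%. The median cell of these populations had reads of 8056 and 7241 genes of any kind.

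The sequencing lanes were not balanced over the populations. All constitutive XGFP+ cells were on 1 lane, together with 14 to 16 cells of each other rOvary population, whose remaining cells were on another. On the shared lane Nodal was found in 12 of 14 XGFPhigh, 8 of 16 XGFPintermediate and 7 of 15 XGFPlow cells, and on the other lane in 82.9%, 32.1% and 47.2%. Lefty1 did not keep the gap on the shared lane, with 57.1% of XGFPhigh and 56.2% of XGFPintermediate cells, where the few cells leave wide intervals. Restricting the cells to those with a natural-log Dazl level above 1, a germ cell marker, gave Nodal shares of 86.8%, 82.2%, 37.1% and 50.5%. For Lefty1 the restricted shares were 71.05%, 79.7%, 49.1% and 69.2%, so XGFPlow cells came close to constitutive XGFP+ cells. In XGFPlow cells the share rose from 58.7% for Lefty1 and from 70.2% to 80.2% for Foxh1. It fell there from 35.5% to 30.8% for Smad7 and from 4.96% to 4.40% for Tdgf1. The bulk PGCLCs and the rOvary cells were measured by different protocols and their levels are not set on 1 scale.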

How the data were processed

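Bulk RNA-seq (stranded total RNA, paired reads of 125 bases) covered 16 libraries in 4 groups, and full-length single-cell RNA-seq covered 552 wells (an updated SMART-seq2 protocol per the labels, a SMART-Seq kit per the study's methods). Per the labels and the study's methods, the authors aligned reads with STAR to mm10 with strain variants masked, counted them with HTSeq 0.6.1 and deposited bulk signal values that are normalized counts, divided by DESeq2 1.16 size factors, and unnormalized counts per gene for each well. Reads of the bulk libraries were recovered from the steps of these values (to within 0.01), which held for 100% of values, and summed to between 29778299 and 46533858 per library. The deposited allelic ratios hold no member and were not used.

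The values were tested with limma 3.58.1 (trend, R 4.3.3) on log2(normalized count + 1) in 1 model of the 16 libraries, for the 16281 genes with a mean above 10, with two-sided p-values adjusted by Benjamini-Hochberg and an FDR threshold of 0.001. The model was tested on simulated data. The alternatives were other pseudocounts, no filter and a mean above 100, quantile normalization, 2 groups alone, a fold threshold, each library left out, the replicate number as a block, and edgeR 4.0.16 and DESeq2 1.42.0 on the recovered reads. Same-numbered XGFP+ and XGFP- libraries deviated together (r of 0.2535, 0.1347, 0.2001 and 0.3066 over genes), so these numbers may pair the libraries, which the labels do not state. The main model held no term for this, and the replicate block was an alternative. Between other groups, r of same-numbered libraries lay between -0.0105 and 0.16, both for EpiLCs and XGFP+ PGCLCs.

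Wells with at least 4000 genes and 10000 reads and at most 5% mitochondrial reads were kept, and doublets were not called. Populations were compared for genes with reads in at least 10% of cells, as a mean over the 4 rOvary populations; the same minimum in each population, and leaving out the cell with most reads of a gene, were alternatives chosen after seeing the data. Python 3.11.15, scipy 1.17.1 and Biopython 1.88 were used for intervals and sequences. All 8 members are named, with, from each other list of pathway genes, the called genes with the largest fold change per comparison, up to 3; the 3 most similar profiles of each member could be named, and the few other genes of single cells were chosen after their values were seen. The members and lists were chosen with earlier results of these data known. A gene of the pathway lists is counted but not reported here by name.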

Additional observations from a re-analysis of the deposited data

Results flagged for a closer look

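The change of Tdgf1 from EpiLCs differed between the PGCLCs: it was -3.28 in XGFP- and -2.20 in XGFP+ cells on the log2 scale, and the difference of -1.08 passed the threshold of the test (FDR 1.92e-06). All 4 XGFP- libraries lay below all 4 XGFP+ libraries. The EpiLC libraries are shared by both changes and drop out of the difference. The range over all alternatives was -1.20 to -0.998, with an FDR of at most 1.46e-05. Among the 28 sets of 4 libraries, 1 for each gene and group, no library stood apart from the others by Dixon's criterion.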

How the results depend on the processing

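Of 96 counts of members called with 1 library left out, 96 stayed within 1.5 times the count with all libraries, with ranges of 5 to 6 (EpiLCs against ESCs), 3 to 3 (XGFP+ PGCLCs against EpiLCs), 3 to 4 (XGFP- PGCLCs against EpiLCs), 1 to 1 (between PGCLCs), 5 to 5 and 5 to 5 (XGFP+ and XGFP- PGCLCs against ESCs). The genes called then ranged, in the same order, over 7112 to 7776, 8738 to 9439, 9423 to 10164, 3078 to 4018, 7412 to 8113 and 9029 to 9678. Asking also for a log2 fold change above 1 lowered them to 4201, 4947, 5685, 1821, 4030 and 5461, and the members called against ESCs to 3 in XGFP+ and 3 in XGFP- PGCLCs. With the PGCLC groups alone, 3 members were called between them. With the replicate number as a block, 8073, 9615, 10328, 4170, 8432 and 9931 genes were called, and no call of a member changed; edgeR called 7878, 9490, 10184, 3974, 8082 and 9660 genes and DESeq2 8602, 10146, 10789, 5051, 8872 and 10299 genes on the recovered reads, with the same counts of members. Differences near 0 changed sign: Lefty1 in XGFP- PGCLCs against EpiLCs (0.0249 with quantile normalization, 0.121 and 0.132 without EpiLC library 1 or 2, 0.0272 without XGFP- library 3, over -0.20 to 0.13 with any 1 library left out), Gdf3 between PGCLCs (-0.0154 with quantile normalization, -0.0267 without XGFP+ library 4, -0.0232 without XGFP- library 1, over -0.0267 to 0.0945) and Lefty2 in XGFP- PGCLCs against ESCs (-0.11 without ESC library 3, over -0.11 to 0.32). Of 184 shares of cells under other settings, 158 stayed within the interval of the share with all kept cells, and 13 of the 26 that did not were on the lane with few cells. The cause of these shifts was not tested. Depth limits Smad7 most, and with 1 sample per sorted population no rOvary difference could be tested.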
